A study of Mus musculus with 8 samples.

Results

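The HoxD cluster is the row of 9 homeobox genes Hoxd13, Hoxd12, Hoxd11, Hoxd10, Hoxd9, Hoxd8, Hoxd4, Hoxd3 and Hoxd1 on mouse chromosome 2. All 9 are named on the expression array of the study, each by 1 probe, out of 36406 gene and transcript names in all. They were chosen by name, as the non-control probes that carry one of these symbols, and not by their change. The study compared E14Tg2A.4 mouse embryonic stem (ES) cells, a feeder-independent line kept in its undifferentiated state, with the same cells after 72 h of retinoic acid (RA), a derivative of vitamin A that sets off differentiation. The treated cells received all-trans RA in medium without LIF, the cytokine that keeps ES cells self-renewing, so RA and the loss of LIF cannot be told apart here. Each condition had 4 cultures, described as biological replicates, all of 1 cell line, and 8 arrays in all carried RNA labelled with a single dye.

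Hox genes encode DNA-binding homeodomain proteins that give cells their position along the axes of the embryo. They lie in 4 clusters, HoxA to HoxD, in which genes with the same number (paralogues) descend from the same ancestral gene. Within a cluster all genes are read in the same direction, the low-numbered genes at the 3′ end are switched on early and far to the front of the embryo, and the high-numbered genes at the 5′ end late and towards the tail. The HoxD cluster is best known for the limb, where its 5′ genes shape the digits, and the 3′ genes act in the hindbrain, spinal cord and axial skeleton. In ES cells the clusters are covered by Polycomb complexes and hardly transcribed, and RA, through its nuclear receptors, is a classical inducer of their 3′ genes.

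Values are given as the log2 of the background-corrected intensity of a probe relative to the 75th percentile of its array, so that 0 is a bright probe and values near -7 lie in the background. The array's software flags a probe as well above background or not, and a probe without that flag on any array of a condition has only an upper limit there. Changes are RA minus untreated on this log2 scale, with standard errors (SE) and adjusted p-values from limma, and a gene was called when its adjusted p was under 0.05 and its fold change above 1.5. A fold is written as at least N-fold where no untreated array was well above background. This bound takes the dimmest flagged signal of each untreated array as the limit. It holds for these processed intensities only, and another background correction gave smaller changes. Probe signals depend on the probe, so levels of different genes are not set against each other.

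The promoters of 5 members are printed because these genes gave the different outcomes described here: Hoxd8, Hoxd4 and Hoxd1 rose by large factors, Hoxd13 rose by little, and Hoxd10 was not called. Each is the 250 bases just before the RefSeq start of the gene, on the plus strand of GRCm38.p6, a later build than the mm9 positions of the probes. Capitals mark matches, on either strand, to the TATA box TATAAA, the CCAAT box CCAAT, the GC box GGGCGG and AGGTCA, a single binding half-site of RA receptors.
Hoxd13, chr2:74667975-74668224: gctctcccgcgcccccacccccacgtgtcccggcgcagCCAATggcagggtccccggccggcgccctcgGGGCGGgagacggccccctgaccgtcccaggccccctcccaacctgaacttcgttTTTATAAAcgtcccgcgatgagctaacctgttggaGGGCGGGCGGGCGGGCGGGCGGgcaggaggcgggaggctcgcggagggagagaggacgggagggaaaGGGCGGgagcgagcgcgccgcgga
Hoxd10, chr2:74691641-74691890: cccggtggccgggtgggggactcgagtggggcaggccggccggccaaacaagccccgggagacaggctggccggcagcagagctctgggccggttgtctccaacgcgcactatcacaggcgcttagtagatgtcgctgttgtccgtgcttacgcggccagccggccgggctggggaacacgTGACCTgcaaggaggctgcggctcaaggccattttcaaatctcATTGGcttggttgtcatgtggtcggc
Hoxd8, chr2:74704365-74704614: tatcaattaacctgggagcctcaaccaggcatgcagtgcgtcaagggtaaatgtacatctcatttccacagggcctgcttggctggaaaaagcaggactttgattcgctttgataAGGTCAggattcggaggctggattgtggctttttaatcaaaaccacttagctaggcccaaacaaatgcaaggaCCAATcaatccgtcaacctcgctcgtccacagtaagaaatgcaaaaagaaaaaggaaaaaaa
Hoxd4, chr2:74721728-74721977: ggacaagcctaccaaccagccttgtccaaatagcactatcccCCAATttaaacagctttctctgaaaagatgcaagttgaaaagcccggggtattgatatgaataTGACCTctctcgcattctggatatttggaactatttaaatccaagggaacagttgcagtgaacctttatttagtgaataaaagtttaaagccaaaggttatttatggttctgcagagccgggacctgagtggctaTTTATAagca
Hoxd1, chr2:74762730-74762979: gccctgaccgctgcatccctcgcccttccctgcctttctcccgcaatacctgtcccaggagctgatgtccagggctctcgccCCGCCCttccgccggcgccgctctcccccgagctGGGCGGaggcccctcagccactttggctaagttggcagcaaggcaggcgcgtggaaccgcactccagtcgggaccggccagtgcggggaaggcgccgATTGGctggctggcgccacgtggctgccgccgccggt

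A RefSeq entry was found for all 9 members, and Hoxd11 had 2 starts. The GC content of the windows shown was 74.4% for Hoxd13, 65.6% for Hoxd10, 44.4% for Hoxd8, 40.4% for Hoxd4 and 71.6% for Hoxd1, against a median of 52.4% over 32851 windows of the same length. AGGTCA lay in the windows of Hoxd10, Hoxd8, Hoxd4 and Hoxd3, 3 of them called genes and 1 not, and in 14.02% of all windows. The paired site with 5 bases between a pair of these, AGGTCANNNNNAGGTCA, was in none of the member windows and in 3 of all windows, and the variant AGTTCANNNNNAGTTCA, also absent from them, was in 7. TATAAA was found before Hoxd13 and Hoxd4 and in 12.4% of all windows, CCAAT in 33.8% and GGGCGG in 32.7%. The window of Hoxd13 held 7 overlapping or separate matches to GGGCGG. These matches are a description of the letters of the windows only.

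Of the 9 HoxD genes, 6 were called higher after RA, 0 lower and 3 were not called, while 12.9% of the 55681 probes of the array were called higher and 21.6% lower. The 6 that rose were Hoxd13, Hoxd9, Hoxd8, Hoxd4, Hoxd3 and Hoxd1. For all 6 the lowest RA array lay above the highest untreated array, as for 13.9% of all probes, and no member had all its RA arrays below all its untreated arrays, as 23.8% of all probes did. The 3 genes not called, Hoxd12, Hoxd11 and Hoxd10, were not well above background on any of the 8 arrays, as for 29.9% of all probes. In bulk RNA, fewer cells expressing a gene and less RNA per cell cannot be told apart. The median fitted change was 3.50 over the 9 genes, or 1.74 with dim signals at the floor, and -0.28 over all probes, and the last is -0.0026 when the arrays are quantile normalized.

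**Figure D1:**
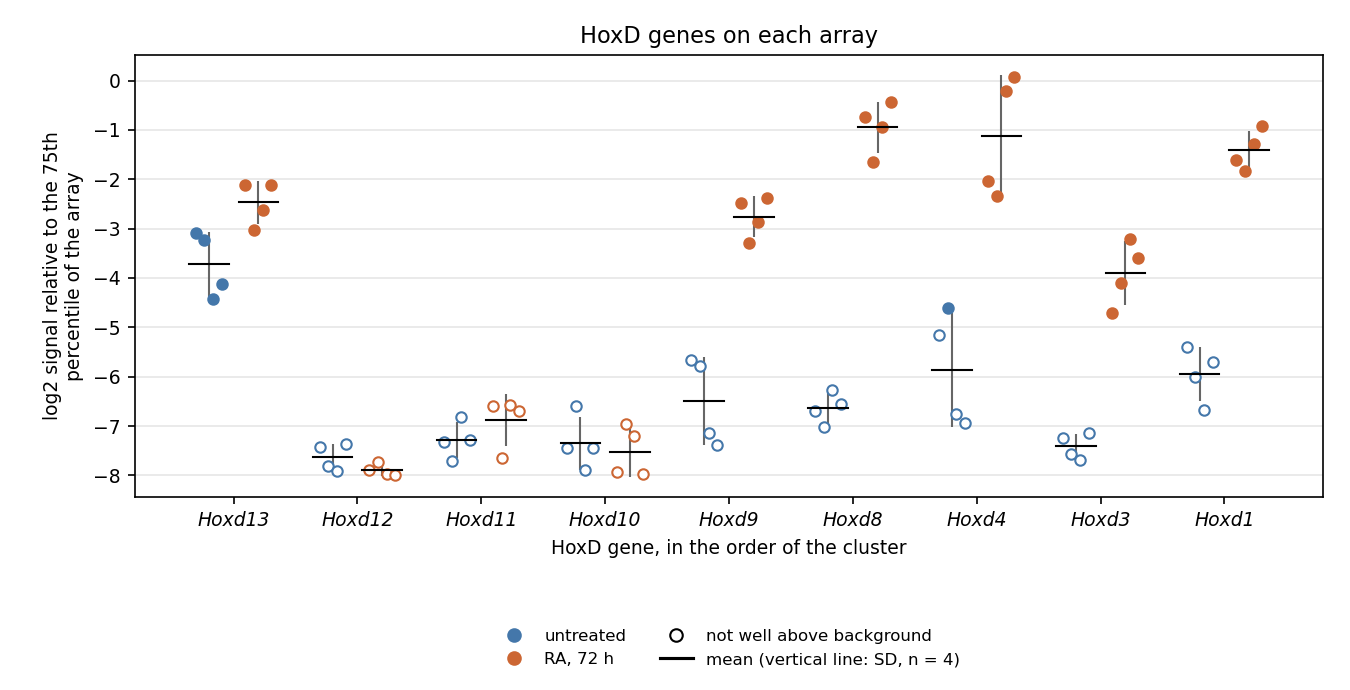
Log2 signal of the 9 HoxD genes on each of the 8 arrays, relative to the 75th percentile of the array, in the order of the cluster; points are arrays, open where not well above background, horizontal lines are means and vertical lines SD (n = 4). The RA arrays of Hoxd9, Hoxd8, Hoxd4, Hoxd3 and Hoxd1 sit clearly above their untreated arrays, those of Hoxd13 by 0.067 at the nearest point, and all symbols of Hoxd12, Hoxd11 and Hoxd10 are open.

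Hoxd1, the 3′ end of the cluster, has its probe at chr2:74603000-74603059 (mm9, plus strand, transcript NM_010467). Its signal was -5.40, -6.00, -6.68 and -5.69 in untreated replicates 1 to 4 and -1.62, -1.83, -1.29 and -0.92 in RA replicates 1 to 4. No untreated array was well above background and all 4 RA arrays were, with a gap of 3.57 between the nearest arrays of the conditions. The increase was 4.53 (SE 0.30, adjusted p = 1.2e-05 by limma, n = 4 per condition) and at least 17.4-fold. Only 1.33% of all probes went from no untreated array to all 4 RA arrays above background, and Hoxd1, Hoxd3, Hoxd8 and Hoxd9 were among them.

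Hoxd3, which acts in the patterning of the neck vertebrae, rose from below background on all untreated arrays. Its probe lies at chr2:74585787-74585846 (NM_010468). The untreated arrays read -7.23, -7.57, -7.68 and -7.15 and the RA arrays -4.71, -4.10, -3.21 and -3.60, so the conditions were 2.44 apart. The increase was 3.50 (SE 0.31, adjusted p = 4.7e-05 by limma), of which at least 3.35-fold lies above background. Under a background correction that compresses dim signals (normexp) the change was 0.88, still called.

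Hoxd4, a gene of the hindbrain and neck region, differed most between cultures. Its probe lies at chr2:74566866-74566925 (NM_010469). Untreated cultures 1 to 4 read -5.16, -4.61, -6.75 and -6.95, with replicate 2 alone well above background, and RA cultures -2.03, -2.34, -0.20 and 0.07. Cultures 3 and 4 were higher after RA than cultures 1 and 2, and before RA only culture 2 had a measured signal. Between cultures of the same number the fitted rise was 3.12, 2.26, 6.55 and 7.01, or 3.12, 2.26, 5.49 and 5.27 with dim signals at the floor. The fitted mean increase was 4.74 (SE 0.71, adjusted p = 0.00083 by limma), with an SD of 1.16 in untreated and 1.23 in RA cultures. With untreated replicates 3 and 4 raised to the floor of their arrays it was 4.04, or 16.4-fold.

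A probe with no gene name, A_55_P2232023, at chr2:74569698-74569757 on the same strand just beyond the Hoxd4 probe, behaved alike. It read -3.21, -3.65, -4.90 and -4.63 before and -0.92, -1.12, 0.42 and 0.60 after RA, and every array was well above background. Its rise of 3.84 (SE 0.51, adjusted p = 0.00041 by limma) came with smaller steps in cultures 1 and 2 (2.29 and 2.53) than in 3 and 4 (5.31 and 5.23). The transcript it measures is not named by the array. The first 30 bases of both probes are shown because together they give 2 separate readings of this stretch of the cluster.
Hoxd4 probe: tcatatggcaggagctactgagaacataaa
A_55_P2232023 probe: cactggttttgctgccactgattaaagtct

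Hoxd8 had the largest fitted change of the members. Its probe lies at chr2:74545171-74545230 (NM_008276), in the middle of the cluster. The untreated arrays read -6.70, -7.02, -6.27 and -6.54, none of them well above background, and the RA arrays -0.75, -1.65, -0.95 and -0.44. The nearest arrays of the conditions were 4.62 apart. The increase was 5.69 (SE 0.28, adjusted p = 3.3e-06 by limma) and at least 26.0-fold, and the fitted steps of the 4 cultures were alike, at 5.95, 5.38, 5.31 and 6.11.

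Hoxd9, a gene of the lower spine and limb, was the most 5′ member with a large change. Its probe lies at chr2:74537676-74537735 (NM_013555). It read -5.65, -5.78, -7.14 and -7.38 in untreated cells, below the background limit throughout, and -2.49, -3.30, -2.87 and -2.37 after RA. The increase was 3.73 (SE 0.43, adjusted p = 0.00018 by limma) and at least 6.59-fold, with a gap of 2.36 between the conditions.

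Hoxd10, Hoxd11 and Hoxd12, which pattern the limb and the lower body, gave no signal above background in either condition. Their probes lie at chr2:74532280-74532339 (NM_013554), chr2:74522136-74522195 (NM_008273) and chr2:74515664-74515723 (NM_008274). Hoxd10 ranged from -7.90 to -6.60 in untreated and from -7.96 to -6.97 in RA arrays. Hoxd11 ranged from -7.70 to -6.82 and from -7.65 to -6.57, and Hoxd12 from -7.90 to -7.37 and from -7.99 to -7.73. The 2 conditions overlapped for each of these genes. Their fitted differences of -0.17, 0.40 and -0.27 were not called (adjusted p = 0.70, 0.27 and 0.22 by limma), and since both conditions lie below the limit of the array no fold is given.

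Hoxd13, the 5′ end of the cluster and the gene of the digits and the urogenital outlet, differed from its dim neighbours. Its probe at chr2:74509248-74509307 (NM_008275) was well above background on all 8 arrays, at -3.09, -3.23, -4.43 and -4.12 in untreated and -2.12, -3.03, -2.63 and -2.11 in RA cultures. The conditions nearly touched, with a gap of 0.067. The increase was 1.25 (SE 0.35, 2.38-fold, adjusted p = 0.021 by limma), and the steps of the 4 cultures were 0.98, 0.20, 1.81 and 2.01. The call was lost without RA replicate 1 (adjusted p = 0.056), without RA replicate 4 (0.056), without untreated replicate 4 (0.056), on either slide alone (0.073 and 0.21) and against a least change of 1.5-fold (0.19).

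Set in the order of the cluster, the changes fell into a 5′ stretch with no signal, from 6.42 to 23.0 kb beyond the Hoxd13 probe, and a stretch from 28.4 to 93.8 kb in which all 5 genes rose. Their lower bounds, or for Hoxd4 the change with dim signals at the floor, were 2.72 (Hoxd9), 4.70 (Hoxd8), 4.04 (Hoxd4), 1.74 (Hoxd3) and 4.12 (Hoxd1) on the log2 scale. The step lies between Hoxd10 and Hoxd9, whose probes are 5.40 kb apart. The rank correlation of change on position was 0.68 over 9 genes, and 0.63 to 0.82 within the 4 cultures, given as a description since genes are not replicates and share their arrays. Ranks among dim genes are not measured, and with dim signals at the floor, which ties Hoxd10, Hoxd11 and Hoxd12, it was 0.71.

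**Figure D2:**
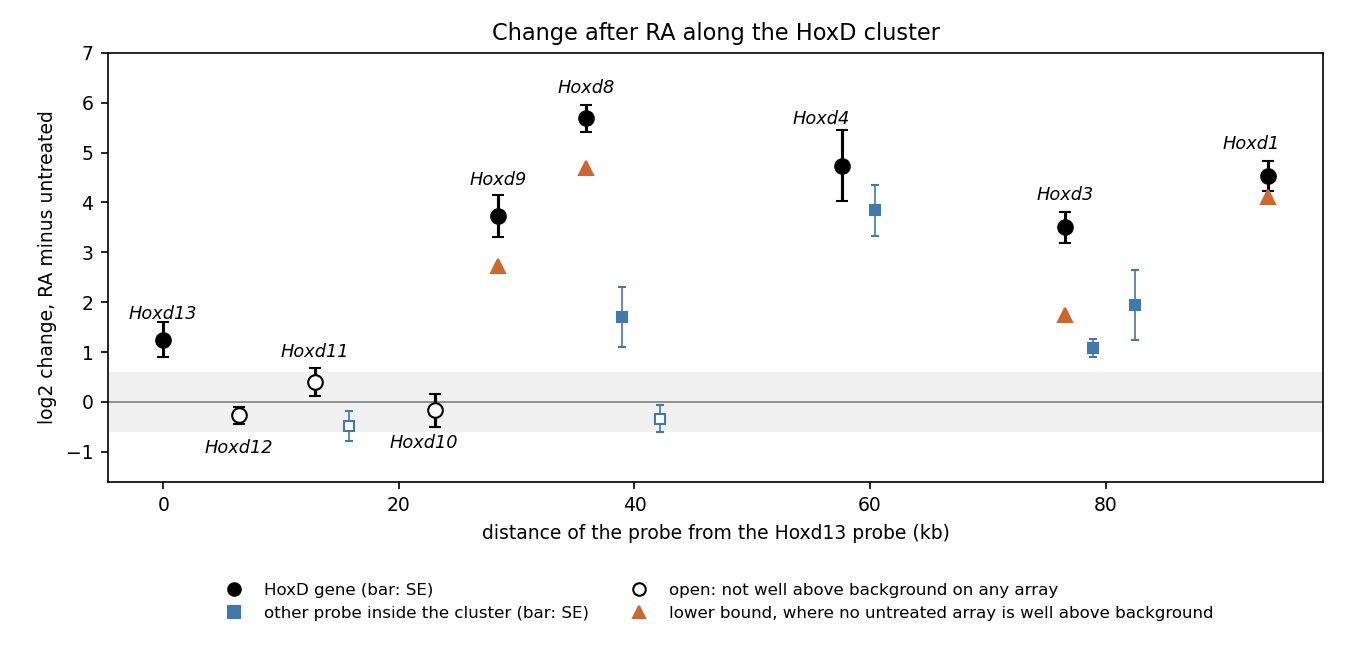
Log2 change (RA minus untreated, bars SE) of the 9 HoxD genes (circles) and of the other 6 probes between them (squares) against the distance of the probe from the Hoxd13 probe in kb; open symbols were not well above background on any array, triangles are lower bounds and the grey band marks changes under 1.5-fold. The 5 genes from 28.4 kb on have fitted changes between 3.50 and 5.69, with bounds down to 1.74 for Hoxd3, and Hoxd13 changed by 1.25.

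No pair of neighbouring members could be tested for a difference in their changes, because in each of the 8 pairs at least 1 probe was not well above background in 1 of the conditions. Hoxd13 was set beside the other 5 called genes with dim signals at the floor of their array, after the values had been seen and with no test, since these genes were picked as called. There Hoxd8 changed by 3.45 more than Hoxd13 (SE 0.50), Hoxd1 by 2.87 (SE 0.44), Hoxd4 by 2.79 (SE 0.61), Hoxd9 by 1.47 (SE 0.35) and Hoxd3 by 0.49 (SE 0.65).

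The 4 cultures differed in how far some members rose. Hoxd13, the member measured on every array, rose by more in cultures 3 and 4 than in 1 and 2, as did Hoxd4 with or without the floor. Hoxd1 (3.61, 4.17, 4.41 and 4.29) and Hoxd9 (2.74, 2.48, 2.82 and 2.83) did so by small margins with dim signals at the floor. Hoxd8 (4.48, 4.81, 4.74 and 4.77) and Hoxd3 (0.52, 2.36, 2.48 and 1.61) held no such order at the floor. No untreated array of Hoxd1, Hoxd9, Hoxd8 or Hoxd3 was well above background, so these values are bounds and do not rank the cultures. In untreated cells Hoxd13 was higher in cultures 1 and 2 than in 3 and 4. The summed linear signal of the 8 ES cell markers was 71.0, 120, 47.8 and 45.6 in RA replicates 1 to 4, and that of the 8 mesoderm markers 4.51, 5.99, 2.86 and 3.35, or 3.92, 3.70, 2.31 and 2.97 without Tcf15, all higher in replicates 1 and 2. Without Hand1 as well (log2 1.02, 0.18, -1.47 and -0.71 in RA replicates 1 to 4), the mesoderm sum held no such order. The sum of the 7 primitive endoderm markers was 31.1, 20.6, 37.5 and 33.8, higher in replicates 3 and 4, but without Foxa2 it was 14.7, 6.04, 10.6 and 9.37, with no such order. That of the 8 neural markers, 11.1, 12.3, 11.4 and 11.2, had no such order either, but it was mostly Nes (log2 3.05, 3.26, 3.16 and 3.11). Without Nes it was higher in replicates 1 and 2. The part of these markers in the result was not tested.

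**Figure D3:**
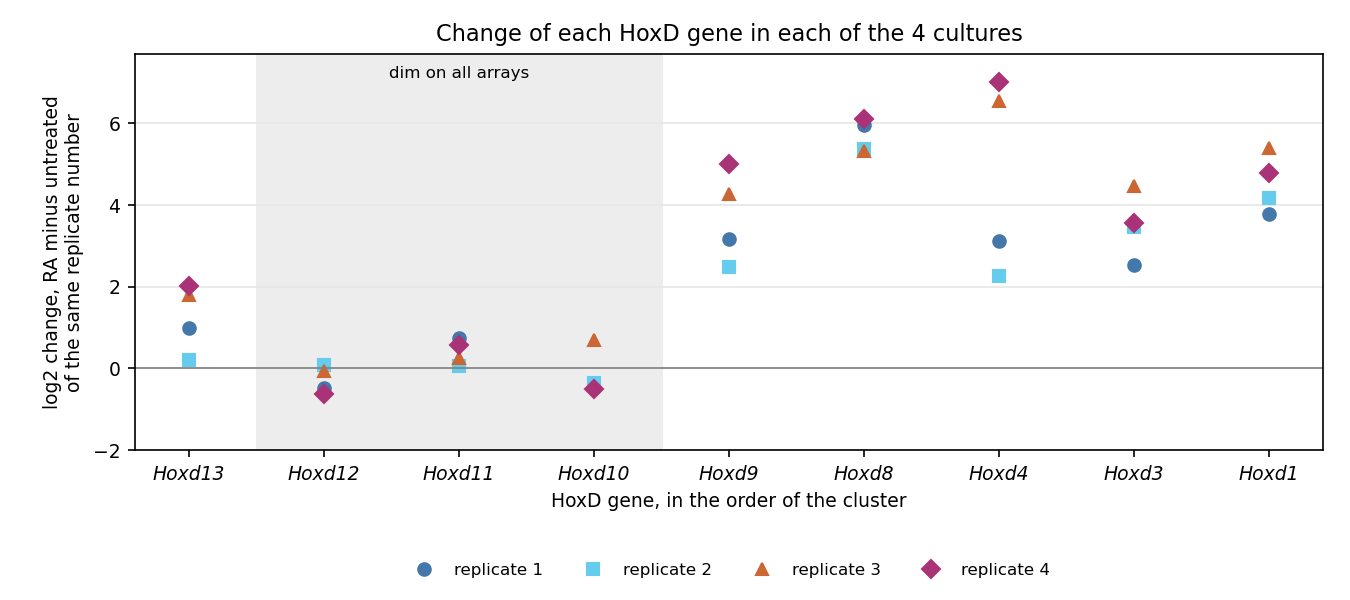
Log2 change of each HoxD gene between the RA and the untreated culture of the same number, 1 symbol per replicate; the shaded genes were dim on all arrays. Replicates 3 and 4 lie above 1 and 2 for Hoxd13, Hoxd9, Hoxd4, Hoxd3 and Hoxd1, but not Hoxd8, with the widest spread for Hoxd4, from 2.26 to 7.01; steps of genes below background in untreated cells are fitted values and carry background scatter.

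The state of the cultures as a whole is given by markers. Between 56.7% and 62.7% of the spots of an array were well above background, and arrays of 1 condition correlated at 0.979 to 0.994. All 8 ES cell markers fell, from a summed signal of 449 to 624 in untreated to 45.6 to 120 in RA arrays. All 7 primitive endoderm markers rose, from summed signals between 1.20 and 2.14 to between 20.6 and 37.5, with Ttr not above background in untreated cells. Of 8 neural markers 3 rose and 1 fell (summed signal 6.13 to 9.73 against 11.1 to 12.3), with Neurog2 and Olig2 dim before treatment. The higher neural sum after RA came from Nes, which rose by 2.10. Tubb3 fell by 2.22, and without Nes the neural sum was lower after RA. Of 8 mesoderm markers 2 rose and 3 fell (11.6 to 15.4 against 2.86 to 5.99, but 2.03 to 2.46 against 2.31 to 3.92 without Tcf15), with Mixl1 dim throughout and Mesp1 dim after RA. How far each of these cell states carries the HoxD signal was not tested.

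The other 6 probes between the outermost members were read by position. Besides A_55_P2232023, 1 more was called: ENSMUST00000100000, at chr2:74588186-74588245 on the minus strand near Hoxd3, rose by 1.08 (SE 0.19, adjusted p = 0.0018 by limma), from a range of -2.59 to -2.06 to one of -1.64 to -1.01. This call was lost on each slide alone and against a least change of 1.5-fold. ENSMUST00000143191, at chr2:74591731-74591790 on the plus strand, read -4.34, -7.63, -7.67 and -7.22 in untreated and -4.79, -5.43, -4.67 and -4.22 in RA cultures and missed the threshold (change 1.94, SE 0.70, adjusted p = 0.058 by limma), while it passed without untreated replicate 1 at a change of 2.73.

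The antisense transcript 1700109F18Rik, Hoxd3os1 in RefSeq, at chr2:74548166-74548225 on the minus strand, was above background on 2 RA arrays and no untreated one, with a change of 1.70 (SE 0.60, adjusted p = 0.054 by limma). With the culture number as a block, 1700109F18Rik and ENSMUST00000143191 passed the threshold. ENSMUST00000139005 and ENSMUST00000048086, the latter 15.8 kb from the Hoxd13 probe and next to Hoxd11 at 12.9 kb, were dim on all 8 arrays. Where transcripts of both strands overlap, a probe reads the strand it was designed against, as the labelled RNA keeps its strand.

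The genes on either side of the cluster were not called. Evx2, a homeobox gene 15.1 kb beyond Hoxd13, was dim on all 8 arrays (-7.78 to -7.24 in untreated, -7.91 to -6.29 in RA). Mtx2, a mitochondrial import gene 105.5 kb beyond Hoxd1, lay well above background on every array and differed by 0.30 (SE 0.18, adjusted p = 0.21 by limma). Of 57 further probes within 1 Mb on both sides, 1 was called higher and 17 lower. All 17 were among 35 probes that the array names only by position, which lie together in a stretch of 49.8 kb (chr2:75447153-75496937) and share transcripts, so they are not 17 separate results. Of these 35 probes 18 were dim on all 8 arrays, some of those called lower among them. With the authors' own processed values 2 probes of the region were called lower.

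The HoxD genes were set beside their paralogues in the other clusters. There 21 of 30 genes were called higher (18 to 22 across the alternatives) and 2 lower: 7 of 11 HoxA genes, 9 of 10 HoxB genes and 5 of 9 HoxC genes rose, beside 6 of 9 HoxD genes. In groups 1 to 9, 20 of 22 genes of the other clusters rose, with a median change of 5.01, and all 5 HoxD genes of these groups did; Hoxa6 (-0.70) and Hoxa9 (0.27) were not called. In groups 10 to 13, 1 of 8 rose, 2 fell and 5 were dim on all arrays, and 1 of the 4 HoxD genes rose. Hoxa13, the gene that rose there, was itself dim on all 8 arrays, as was Hoxa11, which fell.

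**Figure D4:**
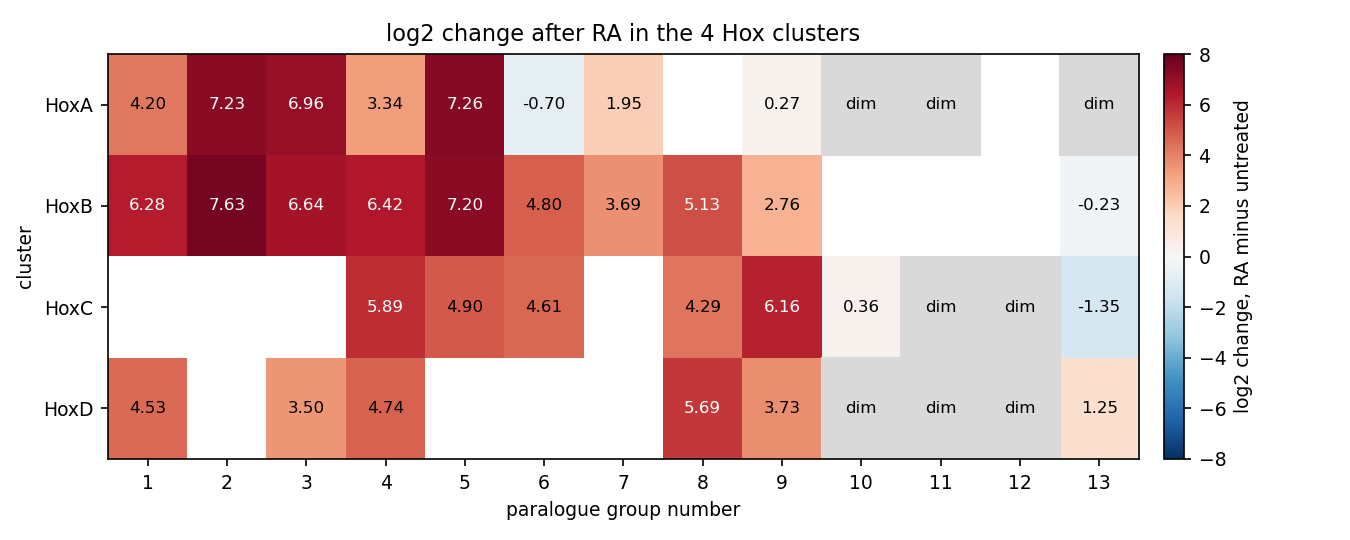
Log2 change after RA of every Hox gene on the array, by cluster and paralogue group number; colour and number give the fitted change (RA minus untreated, n = 4 per condition), grey cells were not well above background on any array and white cells have no gene on the array. Changes of genes dim in untreated cells are fits and not bounds; groups 1 to 5 are red in every cluster that has them, and groups 10 to 12 are grey except Hoxc10 at 0.36.

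Of 20 pairs of a HoxD gene and a paralogue, 5 had both genes above background on 1 or more untreated and 1 or more RA arrays and were tested by the two-sided exact permutation test, adjusted over the 5 pairs. The fitted change of Hoxd4 differed from that of Hoxb4 by -1.69 (SE 0.35, exact p = 0.029, adjusted 0.036), from that of Hoxc4 by -1.15 (SE 0.38, same p-values) and from that of Hoxa4 by 1.40 (SE 0.49, same p-values). Hoxb4 went from a range of -4.50 to -3.17 to one of 1.53 to 3.49, Hoxc4 from -5.26 to -3.73 to -0.65 to 2.81, and Hoxa4 from -5.44 to -4.97 to -2.87 to -0.91. Hoxd4 was above background on 1 of 4 untreated arrays, so its rise may be larger or smaller than fitted, and these tests settle neither the size nor the direction of its differences. With dim signals at the floor the differences were -2.39, -1.84 and 0.75 (adjusted exact p = 0.036 each), and with normexp -3.06, -2.09 and 0.66. Each difference kept its sign in these settings.

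Hoxd13 differed in direction from its HoxC paralogue. Hoxc13 fell from -1.07 to -0.39 in untreated to -2.23 to -2.01 in RA arrays (change -1.35, adjusted p = 0.00049 by limma), which set it 2.60 below the change of Hoxd13 (SE 0.40, exact permutation p = 0.029, adjusted 0.036). The change of Hoxd13 was 1.48 above that of Hoxb13 (SE 0.73, exact permutation p = 0.086), whose own change of -0.23 was not called. With the cultures paired by number, the exact sign-flip test of 4 pairs cannot go below 0.125, which each of the 5 pairs reached.

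The genes whose pattern over the 8 arrays was most like the mean of the 6 called HoxD genes were Hoxb4 (Pearson r = 0.9988), Fras1 (0.9981), Spsb4 (0.998), Lyrm2 (0.9973) and Pfn2 (0.9971), of 13801 genes compared. All 5 rose, from Lyrm2 by 1.02 to Hoxb4 by 6.42. These correlations rest on 8 arrays in 2 groups, and 1220 genes had r above 0.95, so the ranks describe these arrays only.

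Genes that act with Hox proteins mostly rose. Of 9 cofactors of the TALE class, which bind DNA together with Hox proteins, 7 were called higher and 0 lower, with a median change of 1.57. Meis1 rose by 5.51 (from -1.47 to -0.81 in untreated to 3.85 to 4.79 in RA arrays) and Meis2 by 4.80, while Pbx4 (-0.05) and Pknox1 (-0.31) were not called. Of the Cdx genes, which encode activators of the middle and 5′ Hox genes, Cdx2 rose by 3.02 (SE 0.32), Cdx1 differed by 0.19 and was not called, and Cdx4 was called lower (-2.01) with its probe dim on all 8 arrays.

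The RA pathway itself showed the treatment. Of its 16 genes 9 rose, 3 fell and 4 were not called. Rarb, an RA receptor that is a direct target of RA, rose by 7.21 (SE 0.40), from a range of -5.20 to -4.61 to one of 1.26 to 3.24. Cyp26a1, the enzyme that degrades RA, rose by 6.09 (SE 0.53). The receptors Rarg, Rxra and Rxrb fell, by 2.73, 1.30 and 0.80.

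Of 22 genes of the Polycomb and Trithorax groups, which hold Hox clusters silent or active, 9 were called higher, 7 lower and 6 not, with a median change of 0.06. Cbx8, a subunit of Polycomb complex PRC1, rose by at least 6.42-fold from below background, beside Phc2 (2.76). Jarid2 and Phc1 fell by 2.59 and 2.70, and Suz12 and Eed, of complex PRC2, by 0.97 and 1.26. Kdm6b, a demethylase of the Polycomb mark on histone H3, rose by 1.50, and its relative Kdm6a (-0.49) was not called.

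The calls of Hoxd1, Hoxd3, Hoxd4, Hoxd8 and Hoxd9 were kept under all 21 alternatives. Their sizes were not: with normexp they were 2.17, 0.88, 2.35, 2.63 and 1.31, the lowest of the alternatives and below the bounds or floor values given for them. The count of called HoxD genes was 6 or 5 in every alternative, the difference being Hoxd13.

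**Figure D5:**
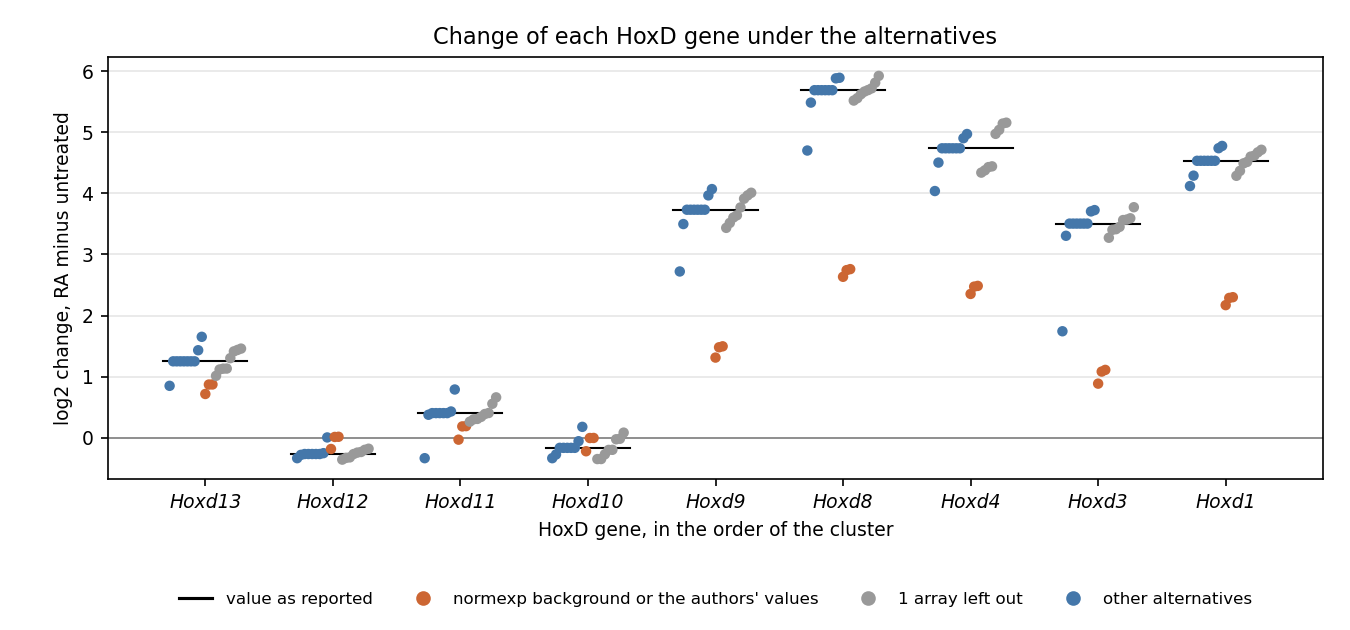
Log2 change (RA minus untreated) of each HoxD gene as reported (line) and under each alternative (points), coloured by kind. Values with the normexp background or the authors' processed values lie lowest for Hoxd9, Hoxd8, Hoxd4, Hoxd3 and Hoxd1, and no point of these 5 genes lies below 0.88.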

How the data were processed

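RNA of 4 untreated and 4 RA-treated (72 h) cultures of E14Tg2A.4 mouse ES cells was hybridized by the authors to one-colour SurePrint G3 mouse arrays. From the authors come the deposited Feature Extraction files (Agilent, version 10.7.3.1), which hold the background-corrected intensity of each spot, its raw intensity and flags. A second deposited table, of log2 values processed by the authors, has the same median (6.76) on all arrays. How it was normalized is not given in the sources used here, and it served as an alternative (r = 0.962 to 0.974 with the same array). All value columns were matched to a sample.

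In R (version 4.3.3), each processed intensity was put on the log2 scale relative to the 75th percentile of its array's 59305 non-control spots. The 3671 control spots and 124 to 145 outlier spots per array were left out, no spot was saturated, and spots of a probe were averaged to 55681 probes. Conditions were compared with limma (version 3.58.1, lmFit and eBayes) with Benjamini-Hochberg adjustment over all probes, and called at the study's thresholds of 0.05 and 1.5-fold. Lower bounds set the RA mean against the higher of each untreated array's floor (its dimmest signal well above background, -6.46 to -5.20) and the signal of the probe. A probe without the flag can lie above this floor, so these bounds are not strict. A gene took its brightest probe. Differences between genes were tested by exact permutation of the 4 against 4 arrays, whose smallest p is 0.0286. The number of arrays limits the precision. Promoter windows came from RefSeq.

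The members and gene lists were chosen with earlier results of these data known. The text names all members and their probes, the probes between them, the nearest named gene on each side, tested paralogues, examples of called and not called genes of the lists and the 5 genes most alike in pattern. Each of 2 slides held 2 arrays of each condition. Same-numbered arrays deviated together from their condition means (r = 0.186, 0.189, 0.104 and 0.151 over 27493 probes well above background on all arrays). Arrays of different numbers gave -0.269 to 0.142, 2 of them above the lowest same-number value. With the shared numbers of the labels this was read as pairing of the cultures, which stays an assumption. The arrays numbered 1 shared a slide, as did those numbered 2 and the 2 different-number pairs above 0.104. The arrays numbered 3 were on different slides, as were those numbered 4 (0.104 and 0.151), and there all pairs of different numbers were negative. Slide and pairing are only partly separated. Alternatives were the scaling, the background correction, the authors' values, a filter on dim probes, slide and replicate blocks, each slide alone, leaving out each array, the mean of a gene's probes and other thresholds. Tested on simulated data for RA against untreated, 132 of 200 of the 55681 probes changed by a log2 value of 2 were recovered and 10 unchanged probes were called.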

Additional observations from a re-analysis of the deposited data

Results flagged for a closer look

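Among 72 groups of 4 arrays looked at for the named genes, 5 held an array set far from the other 3, where chance gives about 1 in 20 groups. Untreated replicate 1 read -4.34 for ENSMUST00000143191 inside the HoxD cluster, with the other 3 from -7.67 to -7.22, and was the untreated array on which this probe was well above background. Hoxd11 read -7.65 on RA replicate 2 against -6.69 to -6.57 on the other RA arrays, all below the background limit. Mtx2, the neighbour beyond Hoxd1, read 2.92 on untreated replicate 2 against 3.43 to 3.52. Cdx2 read -3.26 on untreated replicate 1 against -3.80 to -3.74, and Cdx4 read -6.39 on untreated replicate 3 against -5.41 to -5.30, the latter below the background limit.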

How the results depend on the processing

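The count of HoxD genes called higher was 6 or 5 under every alternative and that of genes called lower was 0. Leaving out 1 array at a time left Hoxd13 at 1.01 to 1.46, Hoxd9 at 3.43 to 4.01, Hoxd8 at 5.52 to 5.92, Hoxd4 at 4.34 to 5.16, Hoxd3 at 3.27 to 3.77 and Hoxd1 at 4.29 to 4.71. On slide 1 and slide 2 alone, 4206 and 3964 probes of the array were called higher and 6348 and 5453 lower, 9 of the HoxD region (its other probes within 1 Mb) were called lower on each, 1 of the region was called higher on slide 1, and 6 genes of the 4 pathway lists were called lower on each. Against a least change of 1.5-fold (treat), 4171 probes were called higher and 5728 lower. With the authors' values and with normexp plus quantile normalization 6583 and 6603 probes were called lower, and 2 of the region in both. Of the region, 5 were called lower with normexp alone, 11 with dim signals at the floor and 10 with quantile normalization. The number of HoxA, HoxB and HoxC genes called lower was 1, in place of 2, with the authors' values, dim signals at the floor, normexp with and without quantile normalization, the dim filter, quantile normalization and each slide alone. Other scalings moved the calls of the whole array from 7196 higher and 12044 lower to 8152 and 8704 with quantile normalization. With the replicate number as a block, Hoxd13 kept its call (adjusted p = 0.027 by limma), 5 probes of the region were called higher in place of 3, and no call of a HoxD gene changed. In the paired test the differences between paralogues stayed at 1.40 (Hoxd4 minus Hoxa4), -1.69 (Hoxb4), -1.15 (Hoxc4) and 2.60 (Hoxd13 minus Hoxc13), with an exact p of 0.125, the smallest that 4 pairs can give. The rank correlation of change on position ran from 0.65 to 0.73 with each array left out or each slide alone. The dim filter removes Hoxd12, Hoxd11 and Hoxd10 and gave no rank correlation, no alternative was run for pairs of neighbours since none could be tested, and the slide block and dim filter were not run for the paralogue pairs. The cause of these shifts was not tested. A signal under the background limit bounds a change and does not measure it, which holds for Hoxd9, Hoxd8, Hoxd3 and Hoxd1 before RA and for 3 of 4 untreated arrays of Hoxd4.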
